A study of Rattus norvegicus with 10 samples.

Results

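Carbonic anhydrases interconvert carbon dioxide and bicarbonate, and 7 isoform genes of this family (Car2, Car3, Car4, Car5a, Car8, Car12 and Car14) were followed in the livers of rats given diethylnitrosamine and thioacetamide (DEN/TAA) and of control rats. The 7 genes were chosen by their measured differences between these same groups on these same arrays, so their differences are given as a description, with no test. Of the 13832 genes named on the array, 6 of the 7 carbonic anhydrases had a named probe, 1 probe each. Car14 had no named probe here and has no value. Testing required a probe to stand well above background on 5 or more of the 10 arrays, which held for 5 of the 7 among 6855 genes in all. A gene that passes only through the group in which it is bright must differ between the groups, so the 5 are not read as standing for all 7.

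Liver RNA was hybridised to 1-colour Agilent 4x44K rat arrays, with 1 array for each of 10 male Wistar rats. The 5 DEN/TAA rats received 200 mg/kg diethylnitrosamine once, injected into the peritoneum at 6 weeks of age, and after 2 weeks began thioacetamide at 200 mg/kg, injected 2 times a week in cycles of 3 weeks with 1 week of rest. The 5 control rats received vehicle only. The series describes 23 weeks of treatment and the labels give 23 weeks as each rat's age, which cannot both hold when treatment starts at 6 weeks, so the duration is not settled here. Diethylnitrosamine is a DNA-alkylating carcinogen that liver cells activate, and thioacetamide is a hepatotoxin that leads to scarring, so each treated liver is a mixture of tissue that the labels do not divide into lesion and surrounding parenchyma. In RNA from whole tissue, fewer cells of a type and less RNA per cell cannot be told apart.

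The isoforms differ in place and activity. Car2 is a fast cytosolic enzyme, also found in red cells and in epithelia that move acid or bicarbonate. Car3 is a slow cytosolic enzyme of skeletal muscle, fat and liver, and in rat liver it is known to be more abundant in males, under control of growth hormone. Car5a lies in the mitochondria, where it supplies bicarbonate to the first steps of the urea cycle and of glucose synthesis. Car4 is tied to the outer cell surface by a lipid anchor, and Car12 and Car14 span the membrane with their catalytic part outside. Car8 lacks catalytic activity and is best known from brain, where it binds the inositol trisphosphate receptor.

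Signals are given as scaled log2 levels: the log2 processed signal of a probe minus the array's 75th percentile over 6229 probes, those detected well above background on each of the 10 arrays. They compare a probe between rats and do not rank different probes. A difference is DEN/TAA minus control on this log2 scale. The DEN/TAA arrays were brighter, with 40.6% ± 4.42 of spots well above background (range 36.1% to 46.6%), against 25.5% ± 6.21 in control (range 16.5% to 32.9%; SD, n = 5 each; exact permutation test, two-sided, p = 0.00794, the smallest that 252 assignments can give). A dim probe therefore met a higher detection floor on control arrays, at scaled log2 levels of -6.96 to -6.18 on DEN/TAA arrays and of -5.94 to -3.75 on control arrays. Across the 6855 genes tested the median difference was 0.33, and 55.5% were called by limma at an adjusted p under 0.05, of which 39.2% of all genes were higher and 16.3% lower.

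Of the 5 carbonic anhydrases that entered the fit across all genes, Car2 and Car4 fell among its genes called higher in DEN/TAA livers, Car3 and Car5a among those called lower, and Car8 among neither. This count of 4 of 5, beside 55.5% of all genes, describes where the genes lie in that fit. It is no test of them, since they were selected on this contrast, and Car4 passed the filter only through the DEN/TAA arrays. DEN/TAA and control rats did not overlap in Car2, Car3 and Car5a, and 39.4% of all genes tested had no overlap in measured signal, from which nothing is read. Car12 was well above background on no array.

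**Figure D1:**
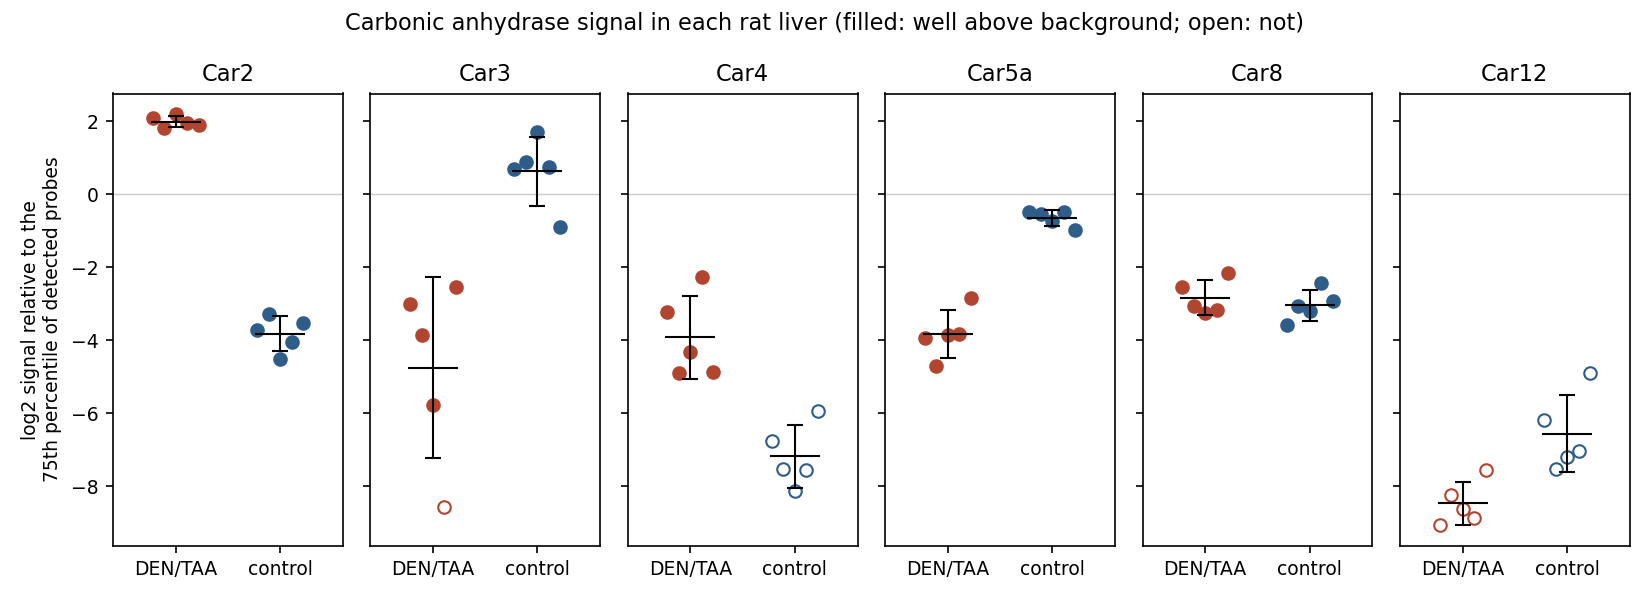
Scaled log2 signal of each carbonic anhydrase with a named probe, in 5 DEN/TAA and 5 control livers. Points are rats, bars are the mean ± SD, and open points were not well above background. Car2 separates the groups by 5.81 with little spread, Car3 spans 6.03 log2 units among DEN/TAA rats, and every Car12 point is open.

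Car2 was far higher in DEN/TAA livers. Its scaled log2 level was 2.08, 1.82, 2.19, 1.95 and 1.89 in DEN/TAA rats 1 to 5, against -3.73, -3.29, -4.52, -4.05 and -3.54 in control rats 1 to 5. Every DEN/TAA rat lay above every control rat, and the DEN/TAA rats spanned only 0.37 log2 units, against 1.23 in control. The means were 1.98 ± 0.15 in DEN/TAA and -3.82 ± 0.48 in control (SD, n = 5 each), a difference of 5.81 (SE 0.22) or 56.1-fold, which placed Car2 at rank 10 of the 6855 genes from the highest. The probe was well above background on all 10 arrays, so this fold is a measured one and not a bound. In control 5 the signal lay close to that array's detection floor (-3.54 against -3.75). Before scaling, the processed signal was 27794, 14227, 17298, 17800 and 22904 units in the DEN/TAA rats, against 134, 241, 101, 140 and 66 units in the control rats.

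The Car2 difference was present on each slide. It was 5.46 on slide 1 (DEN/TAA 1 and 2 with control 1 and 2), 6.59 on slide 2 (DEN/TAA 3 and 4 with control 3) and 5.68 on slide 3 (DEN/TAA 5 with control 4 and 5). Over 6 ways of scaling or correcting the arrays it lay between 4.59 and 6.47, and leaving out any 1 rat gave 5.63 to 5.94.

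Among 6848 other genes tested with a value on all 10 arrays, the profiles nearest to Car2 were those of Gstp1, Ggt1 and Phgdh. Likeness was the root mean square difference of the log2 values over the 10 arrays after each gene was centred on its own mean. It was 0.281 for Gstp1, 0.339 for Ggt1 and 0.550 for Phgdh, against a median of 2.78 over all other genes. For a gene that differs much between the groups, this measure rests largely on the size of that difference. Car2, Car3, Car4 and Car5a were chosen on that difference, so their nearest profiles and the medians beside them are a description and no test. Gstp1, the placental glutathione transferase, and Ggt1, gamma-glutamyl transferase, are markers long used for altered hepatocyte foci in rat liver, and Phgdh makes the first step of serine synthesis. Gstp1 had scaled log2 levels of 4.94, 5.12, 5.34, 5.11 and 4.71 in DEN/TAA rats, against -1.003, -0.59, -0.90, -1.18 and -0.72 in control rats, a difference of 5.92. Ggt1 was above background on no control array and was at least 16.1-fold higher. Phgdh was above background on 3 control arrays and differed by 5.37, or by 4.78 with the others at their floor. Part of the likeness of Ggt1 and Phgdh to Car2 thus lies among undetected control signals.

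**Figure D2:**
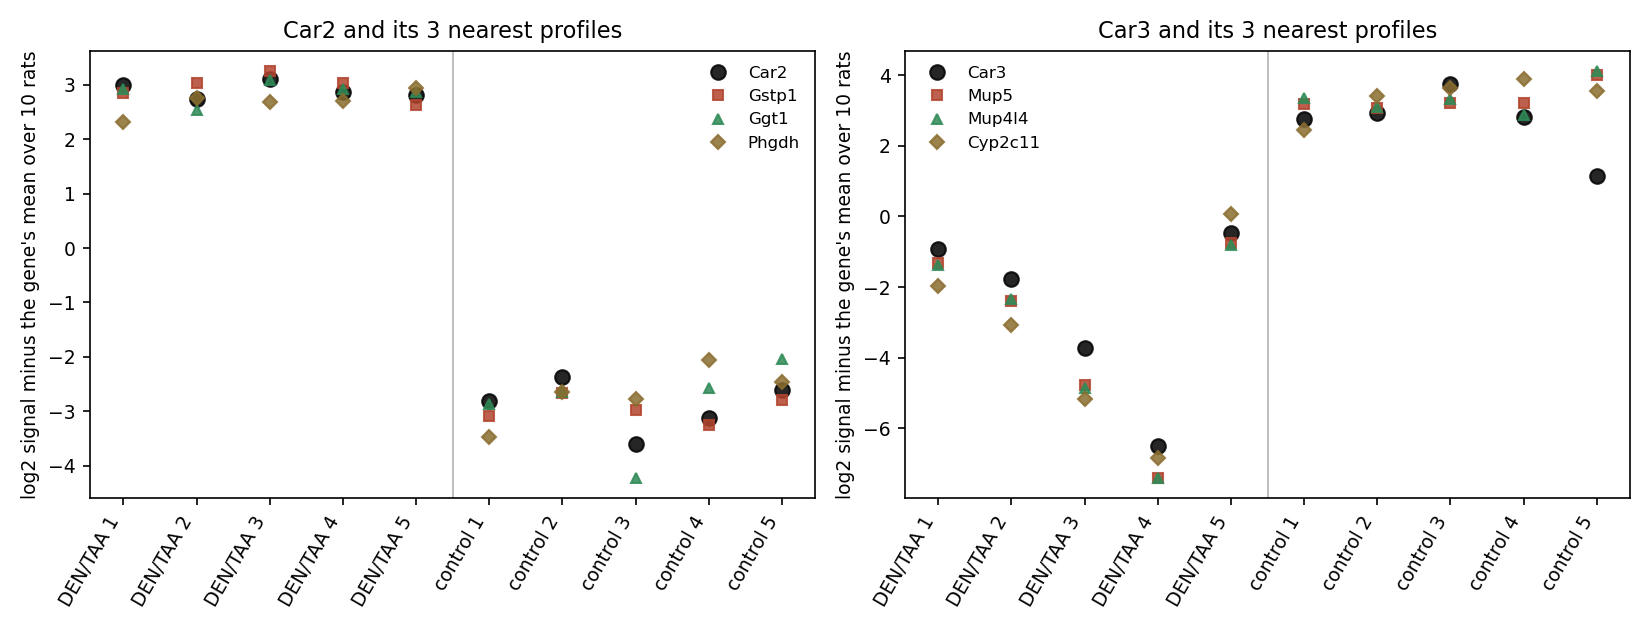
Centred log2 signal of Car2 (left) and Car3 (right) with the 3 genes of nearest profile, by rat, DEN/TAA rats first. Each point is a gene's log2 signal minus its own mean over the 10 rats. Car2 and its nearest genes form 2 separate levels, with Ggt1 the most spread among control rats. Car3, Mup5, Mup4l4 and Cyp2c11 all run in the order 5, 1, 2, 3, 4 from the highest to the lowest DEN/TAA rat.

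Car3 was lower in every DEN/TAA rat, but by very different amounts. Its scaled log2 level was -3.00, -3.85, -5.78, -8.57 and -2.54 in DEN/TAA rats 1 to 5, against 0.69, 0.87, 1.70, 0.74 and -0.91 in control rats 1 to 5. DEN/TAA rats 3 and 4 were the lowest, and in DEN/TAA 4 the probe was not well above background. Among controls, rat 5 was the lowest and rat 3 the highest, and the groups did not overlap. The means were -4.74 ± 2.47 in DEN/TAA and 0.62 ± 0.95 in control (SD, n = 5 each), a difference of -5.36 (SE 0.99), at rank 12 of 6855 from the lowest. With DEN/TAA 4 raised to its array's detection floor the difference was -5.00, and without that rat it was -4.41.

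DEN/TAA 3 and 4, the rats with the lowest Car3, lay on slide 2 together with control 3, which had the highest Car3 of all 10 rats. Within slides the Car3 difference was -4.20 on slide 1, -8.87 on slide 2 and -2.45 on slide 3. The slide as a source of the spread among DEN/TAA rats was not tested. Over 6 scalings the difference lay between -5.67 and -3.18.

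The genes of nearest profile to Car3 were the major urinary protein genes Mup5 (root mean square difference 1.06) and Mup4l4 (1.10) and the male steroid hydroxylase gene Cyp2c11 (1.12), against a median of 3.33. All 3 belong to groups that male rat liver expresses under pulses of growth hormone. Cyp2c11 had scaled log2 levels of -0.77, -1.88, -3.97, -5.66 and 1.26 in DEN/TAA rats 1 to 5, against 3.62, 4.60, 4.83, 5.07 and 4.74 in control rats. Mup5 had 1.64, 0.55, -1.82, -4.44 and 2.19 in DEN/TAA rats, against 6.14, 6.04, 6.16, 6.17 and 6.96 in control rats. In both genes DEN/TAA 5 was the highest of the treated rats and DEN/TAA 4 the lowest, as for Car3. Urinary protein genes are near copies of each other, as are members of the Cyp2c family, so their probes may share signal and are not independent.

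From the highest to the lowest DEN/TAA rat, Car3 ran in the order 5, 1, 2, 3, 4. This order also sorts the DEN/TAA rats by slide, with rat 5 on slide 3, rats 1 and 2 on slide 1, and rats 3 and 4 on slide 2. Differences between rats and between slides cannot be told apart in it. Of the 6848 other genes, 122 (1.78%) put the 5 DEN/TAA rats in that same order. Of 10 genes known to be male-predominant in rat liver, 6 did so, namely Cyp2c11, Cyp2c13, Cyp3a2, Cyp3a18, Mup4 and Mup5, and Cyp4a2, Hsd3b5, Hsd11b1 and Obp3 did not. The 6 come from the Cyp2c, Cyp3a and urinary protein families and are not independent. Cyp2c11 and Mup5 were also picked above as nearest profiles to Car3. The order of Car3 itself was the same under all 6 scalings, and 6 or 7 of the 10 male-predominant genes shared it under each, against 1.78% to 2.88% of all genes. In the other lists examined, Nags, which makes the activator of the first urea cycle enzyme, Rgn of the pericentral genes and Cidec of the adipocyte markers had this order, and no other listed gene had it. The order was noticed in these data, and with 5 rats no correlation is given.

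All 10 male-predominant genes were lower in DEN/TAA livers, beside 16.3% of all genes. Their median difference was -4.26, beside the median of 0.33 over all genes. Those called lower numbered 9 with quantile normalisation, 8 with spike-in scaling and 9 to 10 without 1 rat. Obp3, a lipocalin of the urinary protein group, differed by -8.85 (SE 0.83, limma adjusted p = 6.34e-06), or by -8.13 with the 2 undetected DEN/TAA arrays at their floor. Mup4 differed by -7.54 (SE 0.95, limma adjusted p = 5.31e-05), or by -7.08 with the 1 undetected DEN/TAA array at its floor. The summed level of the list, as a percentage of each array's 75th percentile, was 560% to 2402% in DEN/TAA rats and 10841% to 24038% in control rats, without overlap.

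Car3 is also a gene of skeletal muscle and fat. Of 9 skeletal muscle markers, 7 (Acta1, Atp2a1, Ckm, Myh2, Myh4, Myl11 and Tnnt3) were above background on no array and 1 was tested and not called, with a summed level of 5.75% to 13.3% in DEN/TAA rats and 8.11% to 21.3% in control rats. Of 6 adipocyte markers, Adipoq and Lep were above background on no array and 3 were tested. Of the 3, 2 were higher (Fabp4 with no control array above background), beside 39.2% of all genes, and 1 lower, beside 16.3%. The list had a summed level of 87.5% to 149% in DEN/TAA rats and 49.3% to 85.4% in control rats. Of 6 hepatocyte markers, all tested, 4 were lower, beside 16.3% of all genes, and none higher. Their summed level was 9508% to 11522% in DEN/TAA rats and 18346% to 31435% in control rats. The part of hepatocyte and fat content in the Car3 and Car5a values was not tested.

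Car5a was lower in DEN/TAA livers in a more uniform way than Car3. Its scaled log2 level was -3.94, -4.69, -3.85, -3.83 and -2.85 in DEN/TAA rats 1 to 5, against -0.48, -0.54, -0.74, -0.49 and -0.99 in control rats 1 to 5. The groups did not overlap, with DEN/TAA 5 the highest and DEN/TAA 2 the lowest of the treated rats. The means were -3.83 ± 0.66 in DEN/TAA and -0.65 ± 0.22 in control (SD, n = 5 each), a difference of -3.18 (SE 0.28), or 9.09-fold lower, at rank 50 from the lowest. The probe was well above background on all 10 arrays. The difference was -3.81, -3.10 and -2.11 on slides 1, 2 and 3, lay between -3.49 and -2.08 over 6 scalings, and between -3.43 and -2.97 when any 1 rat was left out.

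The nearest profiles to Car5a were those of Cyp8b1 (root mean square difference 0.342), the sterol hydroxylase that sets the make-up of the bile acids, Gstp3 (0.356), a glutathione transferase of the pi class, and Rnase4 (0.396), a secreted ribonuclease, against a median of 1.84. Their differences were -3.05, -3.31 and -2.64. Gstp3 was thus lower in DEN/TAA livers, while Gstp1 of the same enzyme class, beside which Car2 was placed, was higher.

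A list of 13 genes joined enzymes that take up bicarbonate, the product of Car5a in mitochondria, with genes for the entry of nitrogen into the mitochondrial urea cycle, which do not all use bicarbonate themselves. Of the 10 tested, 7 were lower in DEN/TAA livers, beside 16.3% of all genes, and none was higher, with a median difference of -0.999. Pc, pyruvate carboxylase, which fixes bicarbonate at the entry to glucose synthesis, had scaled log2 levels of 1.14, 1.15, 1.93, 1.60 and 1.99 in DEN/TAA rats, against 2.89, 3.09, 3.24, 3.52 and 3.69 in control rats. Pc differed by -1.73 (SE 0.23, limma adjusted p = 6.89e-05), and the groups did not overlap. Otc, ornithine transcarbamylase, the urea cycle enzyme that follows the bicarbonate-using step, differed by -1.22 (SE 0.20, limma adjusted p = 0.000329). All 10 differences in the list were negative and smaller in size than that of Car5a. Car5a was itself chosen on its difference, so nothing is read from the comparison of size. Scaled by the spike-in probes, which moved the median of all genes to 0.99, 1 of the 10 was called lower.

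Car4 was higher in DEN/TAA livers, but only a bound can be given. Its scaled log2 level was -3.23, -4.89, -4.32, -2.27 and -4.88 in DEN/TAA rats 1 to 5, all well above background, against -6.75, -7.53, -8.13, -7.56 and -5.93 in control rats 1 to 5, none of them well above background. DEN/TAA 4 and 1 were the highest. The measured signals of the groups did not overlap, but the control floors reached -3.75, above the values of DEN/TAA 2, 3 and 5, so a lack of overlap is not shown. The measured means were -3.92 ± 1.14 in DEN/TAA and -7.18 ± 0.85 in control (SD, n = 5 each). Under the scaling used here, and against the detection floor of the control arrays, Car4 was at least 2.12-fold higher in DEN/TAA livers.

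The measured difference of Car4, 3.26 (SE 0.54), shrank to 1.08 with the control arrays at their floor. Over 6 scalings the measured difference lay between 0.79 and 3.92, which reaches below 1.08, so the bound holds only for the scaling used here. With normexp background correction the difference was 0.79 and not called, with overlapping groups. Within slides it was 3.08, 4.83 and 1.87 on slides 1, 2 and 3. The nearest profiles were those of Slc15a1, a peptide transporter, Ccl2, a chemokine that draws monocytes, and Rnf138l1, at root mean square differences of 0.434, 0.442 and 0.476 against a median of 1.75. All 3 were above background on every DEN/TAA array and on no control array, like Car4, so part of each likeness lies among undetected signals.

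The promoter sequences of Car4, which was higher, and Car5a, which was lower, are shown as examples of opposite direction within the family. They are the 250 bases before to 50 bases after the annotated start in RefSeq, build GRCr8, at chr10:70325108-70325407 on the plus strand for Car4 and chr19:66911437-66911736 on the minus strand for Car5a. Capitals mark matches to ACGTG, the core of the hypoxia response element, on either strand, and to TATAAA, the TATA box.
Car4: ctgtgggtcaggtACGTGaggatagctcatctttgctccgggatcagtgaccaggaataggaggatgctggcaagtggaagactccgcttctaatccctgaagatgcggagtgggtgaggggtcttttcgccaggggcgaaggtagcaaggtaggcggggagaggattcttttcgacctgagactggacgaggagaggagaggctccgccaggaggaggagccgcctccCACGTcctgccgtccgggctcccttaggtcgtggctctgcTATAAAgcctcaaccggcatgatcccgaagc
Car5a: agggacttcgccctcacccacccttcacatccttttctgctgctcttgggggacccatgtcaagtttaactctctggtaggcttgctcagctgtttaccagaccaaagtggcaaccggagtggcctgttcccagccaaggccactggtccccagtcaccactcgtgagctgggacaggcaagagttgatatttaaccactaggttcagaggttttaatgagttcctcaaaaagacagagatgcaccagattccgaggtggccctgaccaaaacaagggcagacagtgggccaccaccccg
The Car4 window held 59.7% G and C and 17 CpG, and the Car5a window 54.3% and 5 CpG, against medians of 52.3% and 7 over 27457 rat promoters of the same length.

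Of the 7 genes, Car4, Car5a, Car12 and Car14 had a promoter in the table used, and 4 motifs were searched on both strands. ACGTG was found in Car4, from -237 to -233 and, on the opposite strand, from -21 to -17 relative to the start. It was also in Car12 and Car14, so in 3 of 4 windows, beside 19.7% of all promoters. Of the other isoforms with a window, Car9 and Car15 held it and Car5b, Car7, Car10 and Car11 did not. ACGTG contains a CpG, and the Car4, Car12 and Car14 windows held 17, 13 and 9 CpG, against a median of 7. No share was taken over promoters of like CpG count. TATAAA was found in Car4 at 20 to 25 after the annotated start, and in 14.3% of all promoters. The antioxidant response core TGACNNNGC (12.2% of all promoters) and the STAT site TTCNNNGAA (8.68%) were in none of the 4 windows. No motif overlapped another in the windows shown. These are matches of letters and say nothing of binding.

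Hypoxia-responsive genes are known for the ACGTG core in their promoters. Of 14 listed, 11 were tested, 7 were higher, beside 39.2% of all genes, and 2 lower, with a median difference of 0.86. None of the 7 was above background on all control arrays, and with a filter on all 10 arrays 0 were higher and 1 was lower. Adm, the vasodilator peptide adrenomedullin, had scaled log2 levels of -2.06, -1.71, -2.08, -1.23 and -2.15 in DEN/TAA rats, against -6.25, -4.95, -5.26, -5.19 and -5.04 in control rats, a difference of 3.49 (SE 0.27, limma adjusted p = 1.83e-06), or 2.91 with the 3 undetected control arrays at their floor. Ndrg1, a stress-induced gene, was at least 3.22-fold higher; it was above background on no control array and passed the filter only through DEN/TAA, so no p is given. With normexp background correction Ndrg1 was not called, and 2 of the list were called higher and 2 lower. Ldha, lactate dehydrogenase A, was lower by a difference of -0.87 (SE 0.26, limma adjusted p = 0.014), and Pdk1, a kinase that blocks pyruvate entry into mitochondria, by -0.94 (SE 0.32, limma adjusted p = 0.0256). Neither of these was called when scaled by the spike-in probes, and Pdk1 was not called without DEN/TAA 2, DEN/TAA 4, control 1 or control 4. Car9 and Car12, carbonic anhydrases known as hypoxia-induced in tumours, were not measurable in most livers, as described with the other isoforms.

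**Figure D3:**
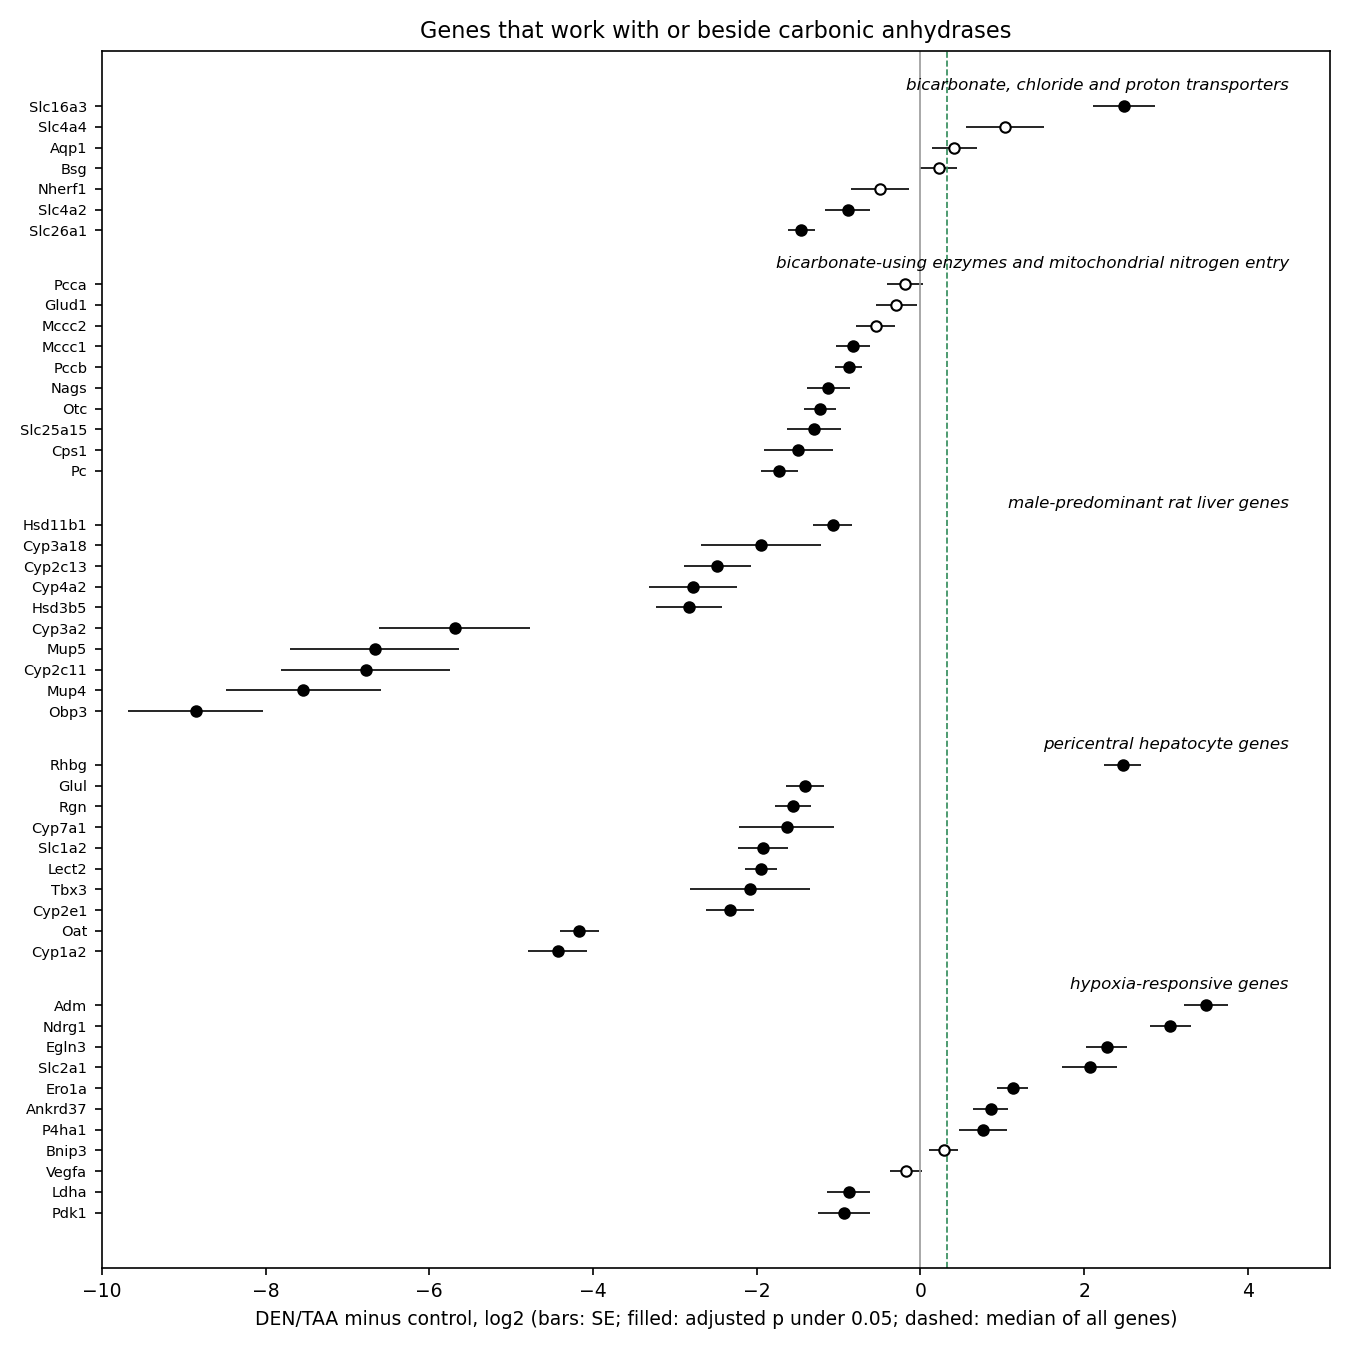
Log2 difference (DEN/TAA minus control) of each tested gene in 5 lists related to carbonic anhydrases, with SE bars; filled points had a limma adjusted p under 0.05 and the dashed line is the median of all genes, 0.33. All 10 male-predominant genes and 9 of 10 pericentral genes lie left of 0, while the transporters lie on both sides.

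Car8 did not separate the groups. Its scaled log2 level was -2.54, -3.06, -3.27, -3.17 and -2.15 in DEN/TAA rats 1 to 5, against -3.59, -3.06, -3.20, -2.44 and -2.93 in control rats 1 to 5. The values of the groups were interleaved, and the probe was well above background on all 10 arrays. The means were -2.84 ± 0.48 in DEN/TAA and -3.04 ± 0.42 in control (SD, n = 5 each), a difference of 0.21 (SE 0.26). Its sign depended on the scaling, from -0.11 with normexp to 0.87 with spike-in scaling, the only one of 6 in which it was called. The nearest profiles were those of Usp16, Mrpl46 and C5h1orf174, at 0.198, 0.207 and 0.208 against a median of 0.628, with differences of 0.26, 0.25 and 0.024 between the groups.

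Car12 was not well above background in any rat. Its scaled log2 signal was -9.06, -8.24, -8.61, -8.85 and -7.55 in DEN/TAA rats, against -6.19, -7.51, -7.18, -7.03 and -4.89 in control rats, none of them well above background. The detection floor was itself lower on the brighter DEN/TAA arrays, and no fold is given.

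**Figure D4:**
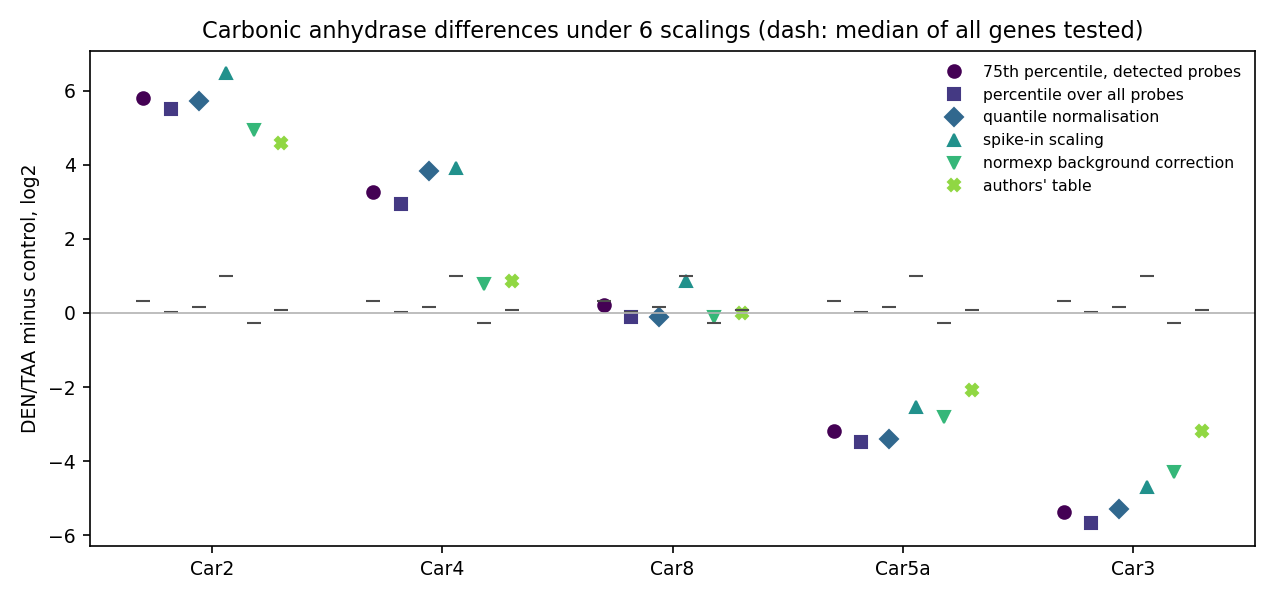
Log2 difference (DEN/TAA minus control) of the 5 tested carbonic anhydrases under 6 scalings, with a dash at the median of all genes under each. Car2 and Car4 stay above 0 and Car3 and Car5a below 0 under all 6, while Car8 crosses 0 (-0.11 to 0.87).

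Of the 9 other isoforms of the family, 7 had a named probe and 2 were tested. Car1, the red cell isoform, had scaled log2 levels of -5.92, -4.80, -5.83, -6.30 and -6.31 in DEN/TAA rats, against -4.60, -4.05, -3.77, -4.99 and -4.52 in control rats. DEN/TAA 2 lay within the control range, and Car1 was lower by a difference of -1.44 (SE 0.31, limma adjusted p = 0.0022), with 4 DEN/TAA and 3 control arrays above background. Over 6 scalings it lay between -1.75 and -0.50. Car1 was not well above background in control 1, control 5 and DEN/TAA 5. Car7, Car13 and Car15, above background on no array, had measured differences of -1.48, -1.50 and -1.45. A difference of the size seen for Car1 thus also appeared in undetected probes, and the part of the detection floor in it was not tested. Car6, a secreted isoform of saliva, differed by 0.22 (SE 0.34, limma adjusted p = 0.605), and its sign changed with the scaling. Car9, a cell surface isoform, was above background on 4 DEN/TAA arrays and no control array, which is under the 5 arrays required, so it was not tested. Car5b, the second mitochondrial isoform, was above background on 0 DEN/TAA arrays and 1 control array, and Car7, Car13 and Car15 on none. Car10 and Car11 had no named probe here.

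Car2, Car3, Car1 and Car13 follow one another on rat chromosome 2 in the RefSeq annotation of build GRCr8. In these neighbouring genes, the difference was 5.81 for Car2, -5.36 for Car3 and -1.44 for Car1, and Car13 was above background on no array. The Car1 difference was of the size measured in undetected isoforms. Car2 and Car3, adjacent in this cluster, thus lay near opposite ends of the ranked differences. Both were chosen on these differences, so this describes the 2 genes and is no result about the cluster.

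Markers of red cells, which hold much Car1 and Car2, were compared beside these isoforms. Of 8 erythroid markers, 5 had a probe, 3 were tested and 2 were higher, beside 39.2% of all genes. Their summed level was 25.9% to 128% in DEN/TAA rats and 11.5% to 39.5% in control rats, while Epb42 and Rhag were above background on no array. Of 9 biliary and progenitor markers, 6 were tested, 4 were higher, beside 39.2% of all genes, and none lower; 3 of the 4 were above background on no control array and passed the filter only through DEN/TAA. The list had a summed level of 166% to 244% in DEN/TAA rats and 78.1% to 119% in control rats. Of 8 macrophage markers, all tested, 7 were higher, beside 39.2% of all genes. Of these 7, Gpnmb, Trem2 and Cd163 were above background on no control array, and Cd163 differed by -0.23 with control arrays at their floor. The list had a summed level of 471% to 680% in DEN/TAA rats and 51.7% to 114% in control rats. Stellate cell markers were higher in 5 of 7 tested, beside 39.2% of all genes. Their summed level was 251% to 375% in DEN/TAA rats and 56.1% to 75.2% in control rats. Endothelial markers, relevant to Car4, were higher in 2 of 3 tested, beside 39.2% of all genes. Their summed level was 127% to 174% in DEN/TAA rats and 103% to 215% in control rats, and Pecam1 was above background on no array. The part of these cell types in the Car1, Car2 and Car4 values was not tested.

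Carbonic anhydrases at the membrane work beside transporters that carry bicarbonate, chloride or protons. Of 21 such genes, 19 had a probe and 7 were tested. Of the 7, 1 was higher, beside 39.2% of all genes, and 2 were lower, beside 16.3%, with a median difference of 0.22. Slc26a1, an exchanger of sulfate and bicarbonate in liver, had scaled log2 levels of 0.06, 0.18, 0.12, 0.14 and 0.65 in DEN/TAA rats, against 1.41, 1.78, 1.90, 1.74 and 1.59 in control rats, a difference of -1.45 (SE 0.16, limma adjusted p = 2.30e-05). Slc4a2, an exchanger of chloride for bicarbonate, had -4.77, -5.25, -4.37, -4.55 and -4.86 in DEN/TAA rats, against -2.94, -4.35, -3.87, -3.80 and -4.41 in control rats. DEN/TAA 3 lay just above control 5, and Slc4a2 differed by -0.89 (SE 0.28, limma adjusted p = 0.0176), a call that was lost with spike-in scaling (-0.23). Slc16a3, the lactate and proton exporter, was at least 1.82-fold higher; it was above background on no control array and passed the filter only through DEN/TAA, so no p is given. With normexp background correction Slc16a3 was not called. Of the list, 9 genes, among them Cftr, were above background on no array.

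Car2 and Car3 are known from the hepatocytes around the central vein, and other genes of that zone were mostly lower. Of 12 pericentral genes, 10 were tested. Of the 10, 9 were lower, beside 16.3% of all genes, and 1 was higher, beside 39.2%, with a median difference of -1.93. Those called lower numbered 7 with spike-in scaling and 7 to 9 without 1 rat. Oat, ornithine aminotransferase, had scaled log2 levels of -1.44, -2.06, -1.57, -1.53 and -1.18 in DEN/TAA rats, against 2.29, 3.32, 2.24, 2.30 and 2.89 in control rats, a difference of -4.17 (SE 0.24, limma adjusted p = 3.14e-07). Cyp1a2, a drug-metabolising enzyme, differed by -4.43 (SE 0.36, limma adjusted p = 2.57e-06). Rhbg, an ammonium transporter, was the 1 gene that was higher, by 2.47 (SE 0.22, limma adjusted p = 5.12e-06), with 3 control arrays above background. Car3 thus shared its direction with 9 of the 10 pericentral genes and Car2 with 1.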

How the data were processed

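The authors deposited 1 scanner file per array with the intensity of each spot. Per the file headers these came from Feature Extraction 11.5.1.1 (Agilent), whereas version 15.5 is given in the submitters' processing notes. The processed intensity is background-subtracted per the file headers. The authors also deposited a table of log2 values. Its columns had medians of 8.592 to 8.594 and the rank order of the raw median spot intensity (rho of 1 on each array), so it was taken as normalised without background subtraction. How it was made is not stated in the labels or headers used here.

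Control spots and outlier-flagged spots were left out, log2 processed signals were averaged per probe, and each array was scaled as the report describes. No spot was saturated. Of 41012 probes, 17502 matched 1 RefSeq gene (GRCr8) by accession and 23510 none here. Of the genes, 2984 had more than 1 probe and were represented by the passing probe of highest mean. Groups and replicate numbers came from the labels. All 10 arrays were compared in limma 3.58.1 (R 4.3.3) without covariates, by moderated two-sided tests with Benjamini-Hochberg adjustment over every gene tested and a threshold of 0.05. The code was tested on simulated data. A fold given as "at least" sets the bright group's mean against, per array, the detection floor (the lowest signal of any probe well above background) or the probe's own signal, whichever is higher. Such a bound holds only for the scaling the report describes. Slides were read from the files, and each slide was 1 scan batch. The labels do not say more than that each array is a rat of its group, so p-values measure the spread between these samples. No pair of arrays was near identical (highest r 0.986). The number of arrays limits the precision.

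The 7 genes, the lists and the markers were chosen with earlier results of these data known. Named genes were all 7, all other isoforms, up to 2 called genes per list and direction with the smallest adjusted p, and the 3 nearest profiles to each tested carbonic anhydrase. Genes named for sharing the Car3 order were chosen after their values were seen, as were Cftr and the markers named singly. Of the planned transporter list, 1 gene is not reported here and is left out of its counts. Alternatives were normexp (offset 50), quantile normalisation, the percentile over all probes, scaling by the 5 brightest spike-in probes, the authors' table, other filters, averaging all probes of a gene, blocking by slide or by replicate number, leaving out each rat, and, added after the data were seen, raising dim arrays to the floor. Normexp was planned on mean spot signal but was run on median spot signal, since the files used here hold the median.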

Additional observations from a re-analysis of the deposited data

Results flagged for a closer look

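In 86 groups of 5 rats examined (the named genes with values in each group), 6 held 1 rat far from the other 4, and chance alone gives about 1 in 20. No carbonic anhydrase was among them. In DEN/TAA rat 5, scaled log2 levels stood above those of the other DEN/TAA rats for Gstp3 (1.36, the others -0.089 to 0.17), Rnase4 (0.14, the others -1.04 to -0.93) and Slc26a1 (0.65, the others 0.058 to 0.18). The first 2 of these are among the 3 nearest profiles to Car5a, for which DEN/TAA rat 5 was also the highest of its group. Rhbg in DEN/TAA rat 4 was -3.20, below the others at -2.51 to -2.31. Among controls, Adm in rat 1 was -6.25, below the others at -5.26 to -4.95, and Mup5 in rat 5 was 6.96, above the others at 6.04 to 6.17.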

How the results depend on the processing

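The differences of Car2, Car3, Car4 and Car5a had 1 sign each under all 6 scalings and without any 1 rat, which is no support for them, since the genes were chosen on these values. Of all genes tested, 2689 were higher and 1116 lower (70.7% of calls higher). Normexp gave 883 higher and 1948 lower (31.2%), the percentile over all probes 1617 higher (50.3%), spike-in scaling 4443 higher and 396 lower (91.8%), quantile normalisation 58.9% and the authors' values 60.8%. No filter gave 5801 lower (30.9%), and a filter on all 10 arrays 1154 higher (55%). The median of all genes was 0.33, and -0.28, 0.022, 0.99, 0.17 and 0.082 under these 5 scalings in the same order. Leaving out 1 rat gave 2344 to 2690 higher and 988 to 1143 lower. Carbonic anhydrases called higher numbered 1 with normexp, and 1 higher and 1 lower with the filter on all 10 arrays, which leaves out Car3 and Car4. Among transporters, 0 were higher with normexp or that filter, 2 with no filter and 4 with spike-in scaling, and 10 were lower with no filter and 1 with spike-in scaling or the filter on all 10 arrays. Without DEN/TAA 5 or control 1, 2 transporters were higher (range 1 to 2). In the list of bicarbonate-using enzymes and mitochondrial nitrogen entry, 1 gene was called lower with spike-in scaling. Hypoxia-responsive genes called higher numbered 2 with normexp, 4 in the authors' values and 0 with the filter on all 10 arrays, and those lower 0 with spike-in scaling, 4 with no filter, 1 with that filter and 1 to 2 without 1 rat. Pericentral genes called higher numbered 0 with that filter. Signs turned for Car6 (normexp -0.90, all probes -0.085, slide as a block -0.00016, floor -0.49), C5h1orf174 (normexp -0.069, quantile -0.011, all probes -0.28, authors' table -0.086, -0.14 to 0.17 without 1 rat), Mrpl46 (normexp -0.095, quantile -0.018, all probes -0.057, authors' table -0.048) and Usp16 (all probes -0.050), none of which was called in the report, though Car6 was called lower with normexp. Fewer genes are tested under the stricter filter, and for the other settings the cause was not tested. Replicate numbers come from the labels and did not pair the samples (correlations of same-numbered rats -0.22 to 0.20), and with a replicate block 2685 genes were higher and 1121 lower. Signal near background on the dimmer control arrays limits Car1, Car4, Car9, Car12 and Slc16a3.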
